A study of Mus musculus with 3 samples.

Results

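The 35 genes described here cover cholesterol metabolism: 19 enzymes of synthesis, 7 regulators, 7 genes of export, uptake and transfer, and 2 genes of sterol storage and hydroxylation. They were named by symbol, in a choice made with earlier results of these data known, and each symbol was found among the 32285 genes of the count matrices. Their counts were followed in 6 cell classes of the mouse medial prefrontal cortex: astrocytes, oligodendrocytes, microglia, endothelial cells, mural cells (pericytes and smooth muscle) and neurons. The study made 1 droplet single-cell library per condition, each from the pooled tissue of 2 mice: estrous females, diestrous females, or males. Its stated aim was to describe cortical neurons that respond to the cycle stage and to sex. The labels name no strain, age or treatment.

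The brain makes its own cholesterol, because lipoproteins of the blood hardly cross the blood-brain barrier. Acetyl units are joined to mevalonate and then to squalene, which is closed into a ring and trimmed to cholesterol. The transcription factors encoded by Srebf2 and Srebf1 drive these enzymes when membrane sterol is low, and liver X receptors drive export genes when oxysterols rise. In the adult brain astrocytes are known to lipidate apolipoprotein E and pass it to other cells, oligodendrocytes need cholesterol for myelin, and neurons dispose of an excess by hydroxylation.

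Promoters of 5 genes are printed as examples of the sequence next to the start sites of synthesis and export genes. Each run holds the 250 bases before a RefSeq start site on GRCm38.p6, read 5′ to 3′ on the gene's own strand. Capitals mark the sterol regulatory element core (TCACNCCAC) and the CCAAT box, which appears as ATTGG where it lies on the other strand. Hmgcs1, Mvk and Mvd are examples of synthesis enzymes, and Abca1 and Apoe of export genes. They do not represent every gene of their lists.
Hmgcs1, chr13:119690101-119690350, plus strand: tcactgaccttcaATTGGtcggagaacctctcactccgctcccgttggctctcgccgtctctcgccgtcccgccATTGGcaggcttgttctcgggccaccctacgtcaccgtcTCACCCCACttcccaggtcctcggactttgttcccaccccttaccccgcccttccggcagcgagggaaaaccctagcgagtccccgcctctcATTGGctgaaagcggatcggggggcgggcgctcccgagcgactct
Mvk, chr5:114444019-114444268, plus strand: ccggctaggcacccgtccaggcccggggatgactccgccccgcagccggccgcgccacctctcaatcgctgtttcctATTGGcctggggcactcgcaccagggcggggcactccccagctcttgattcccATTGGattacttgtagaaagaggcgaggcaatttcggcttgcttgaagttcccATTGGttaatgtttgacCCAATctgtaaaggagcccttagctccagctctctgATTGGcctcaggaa
Mvd, chr8:122443423-122443672, minus strand: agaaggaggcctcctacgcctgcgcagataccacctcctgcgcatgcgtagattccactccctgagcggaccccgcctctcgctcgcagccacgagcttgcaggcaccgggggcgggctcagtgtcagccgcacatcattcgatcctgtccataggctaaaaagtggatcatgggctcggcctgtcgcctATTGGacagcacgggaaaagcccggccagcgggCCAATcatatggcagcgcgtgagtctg
Abca1, chr4:53159896-53160145, minus strand: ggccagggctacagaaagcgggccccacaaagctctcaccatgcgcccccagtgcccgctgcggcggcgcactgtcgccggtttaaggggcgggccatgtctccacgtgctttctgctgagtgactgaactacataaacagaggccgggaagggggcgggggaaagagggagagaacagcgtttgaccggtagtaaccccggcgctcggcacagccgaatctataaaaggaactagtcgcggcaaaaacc
Apoe, chr7:19699189-19699438, minus strand: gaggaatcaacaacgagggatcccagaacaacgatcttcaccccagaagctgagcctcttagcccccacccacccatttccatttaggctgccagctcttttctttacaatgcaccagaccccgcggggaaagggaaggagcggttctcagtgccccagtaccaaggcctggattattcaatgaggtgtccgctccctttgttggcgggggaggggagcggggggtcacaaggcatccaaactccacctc

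Hmgcs1 held 3 CCAAT boxes and 1 sterol regulatory element core, Mvk held 5 CCAAT boxes and Mvd held 2. The Abca1 and Apoe windows held none of either motif. Other members went against this contrast: the synthesis enzyme Acat2 held 0 CCAAT boxes, and the transfer gene Npc2 held 2. RefSeq gave such windows for 29 of the 35 genes, 40 windows in all, and both strands were searched. Of the 19 windows of synthesis enzymes, 15 held CCAAT (78.9%), against 33.9% of all 32851 windows of the table. The GC box GGGCGG was found in 78.9% of the synthesis windows and in 32.7% of all windows. Of the 6 windows of export, uptake and transfer genes, 1 held CCAAT (16.7%) and 3 held the GC box. These windows came from only 4 genes, with Apoe counted more than once. By gene, 1 of the 4 held CCAAT and 3 held the GC box. Of 16 synthesis genes with a window, 15 held CCAAT and 14 the GC box. The core TCACNCCAC was found in 1 synthesis window, that of Hmgcs1, where its first base lay at -137 from the start site, and in 1.05% of all windows. The E-box CACGTG was found in 3 synthesis windows (15.8%) and in 6.02% of all windows. These are matches of letters only, and CCAAT and GC boxes are frequent in promoters.

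The libraries of estrus, diestrus and males had 14476, 18052 and 19555 barcodes, with between 115632520 and 152291602 unique molecular identifiers (UMIs, counts of captured transcripts) each. Although the label for cell type names neurons, the cells carried markers of glia, immune and vascular cells as well, and neurons made up 7401 of the cells assigned to a class. The other classes held 3603 astrocytes, 6555 oligodendrocytes, 7645 microglia, 6138 endothelial cells and 1319 mural cells. Classes were ranges of a marker score with no member gene in it. Between 12 cells (mural) and 61 cells (oligodendrocytes) of a class lay within 25% above the limit. Neurons of the estrus library held a median of 35334 UMIs, against 15045 in diestrus and 7597 in males, while astrocytes held 5091.5, 4873 and 3994. Neuron markers summed in astrocytes to 2.52%, 5.75% and 7.30% of their level in neurons, in estrus, diestrus and males, and they rose in the same order in each of the other classes. Libraries shared between 46 and 60 barcodes with another library. Levels are given as counts per 1000000 UMIs of nuclear genes (CPM) of the summed cells of a class, in the order estrus, diestrus, male.

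Most synthesis enzymes were highest in astrocytes. Of the 35 genes, 21 were higher in astrocytes than in neurons and 2 were lower, where 22.0% and 24.3% of all 17749 genes tested were called in those directions. A call needed an adjusted p under 0.05 and a change of at least 1 on the log2 scale, by edgeR's quasi-likelihood test with Benjamini-Hochberg adjustment and the 3 libraries as a block. The 19 enzymes gave 13 higher and 0 lower calls in astrocytes, with a median log2 fold change of 1.76 beside -0.07 for all genes. By mean level, 17 of the 19 enzymes were highest in astrocytes among the 6 classes (89.5%), and so were 17.5% of all 18222 genes ranked. For 15 of the 17, the 3 astrocyte values did not overlap those of the next class. Pmvk overlapped mural cells and Fdps overlapped oligodendrocytes. Exon bases are also shared by Npc1 with Rmc1, Cyp51 with Akap9, Ggps1 with Arid4b, and Srebf1 with Rai1, so that these counts may hold reads of both genes. The block takes out shifts that all classes of a library share. The spread in these tests is what remains, pooled over the classes. It can hold effects of cycle stage or sex that differ between classes, as well as the error of sampling.

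**Figure D1:**
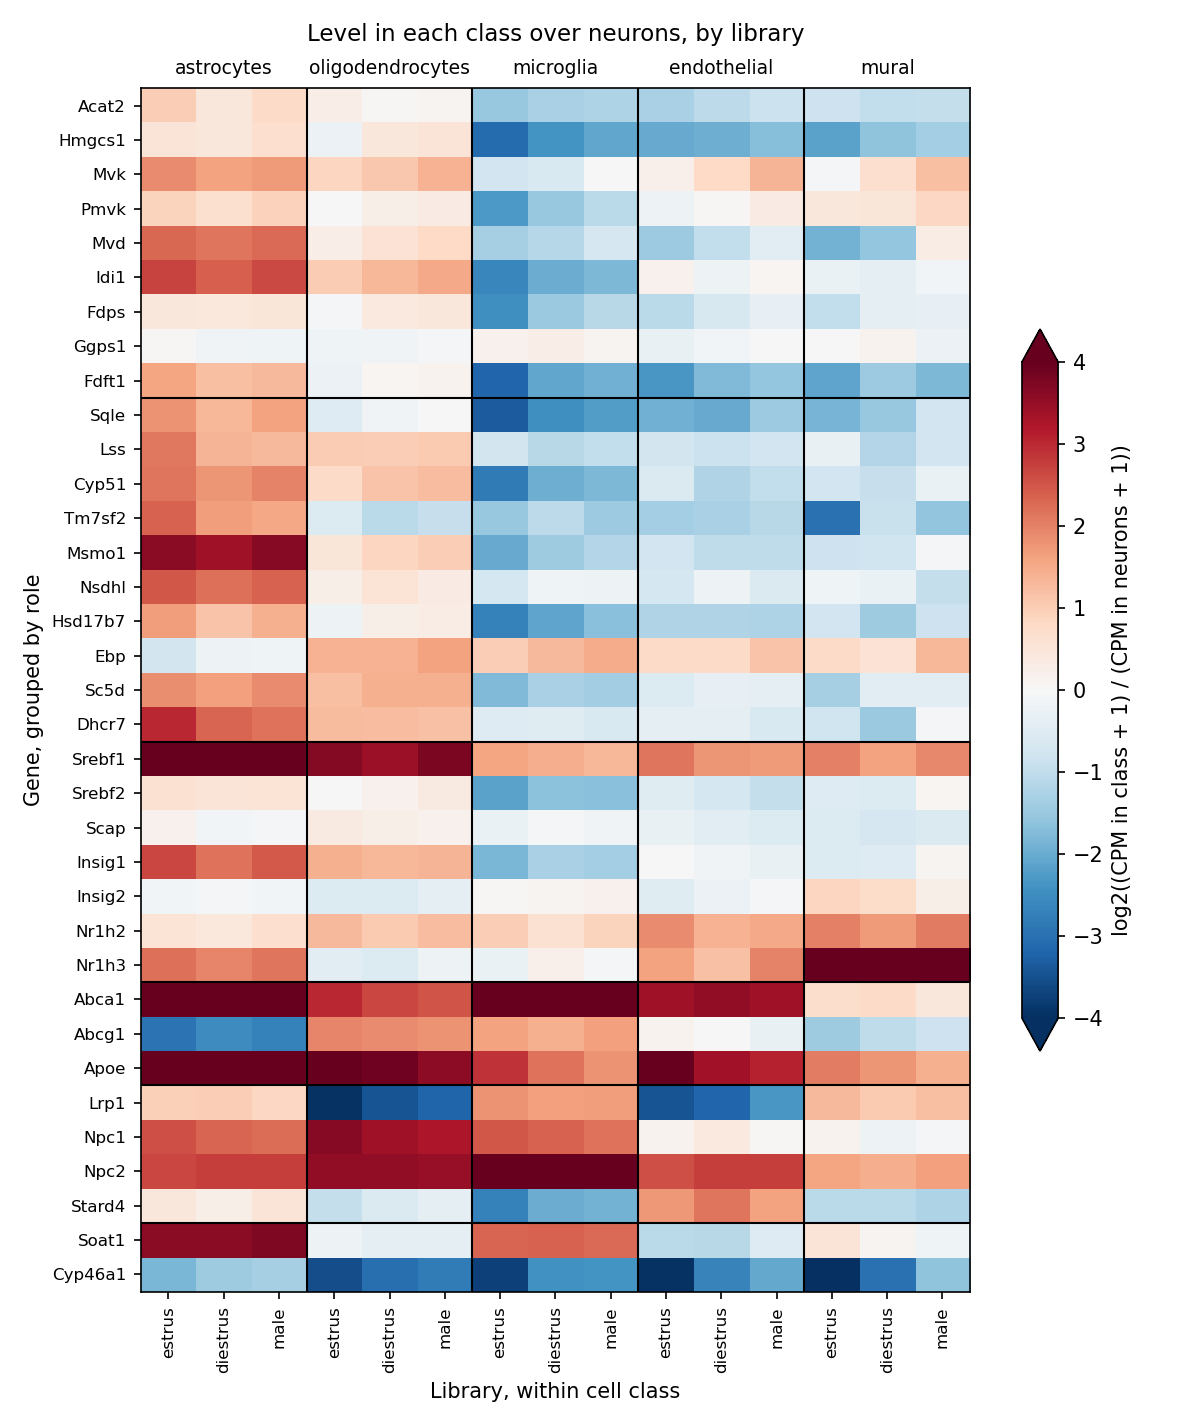
Log2 ratio of CPM + 1 in each class over neurons of the same library, for the 35 genes (vertical, grouped by role) and the 3 libraries within 5 classes (horizontal), with colours capped at 4 in either direction. Synthesis enzymes are mostly red in astrocytes and blue in microglia, and the columns of 1 class look alike across the 3 libraries.

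Of the 9 enzymes of the isoprenoid part, which runs from acetyl units to squalene and here includes the side branch of Ggps1, 4 were called higher in astrocytes than in neurons, and of the 10 later sterol steps 9 were. The difference between these groups of enzymes was not tested. Hmgcs1, which makes the mevalonate precursor HMG-CoA (chr13:119690379-119708260), read 336, 275 and 290 CPM in astrocytes, 199.55, 273 and 259.95 CPM in oligodendrocytes and 236, 199 and 181 CPM in neurons. Values of the oligodendrocytes and neurons overlapped, and Hmgcs1 was not called in astrocytes (log2 fold change 0.60, SE 0.16). Idi1, the isomerase of the isoprenoid units, read 281, 195 and 216 CPM in astrocytes and 42.4, 36.6 and 33.8 CPM in neurons, with no overlap (log2 fold change 2.65). Mvd, the decarboxylase of the mevalonate branch, read 58.9, 38.3 and 39.99 CPM in astrocytes and 11.1, 8.0 and 7.52 CPM in neurons, a log2 difference of 2.40. Its partner kinase Mvk was called too (1.88). Fdft1, squalene synthase and the step that commits the chain to sterols, read 265, 178 and 214 CPM in astrocytes and 87.9, 77.0 and 86.2 CPM in neurons (1.44). The last 500 bases of Fdft1 lie inside a transcript of Ctsb on the other strand, and use of strand in counting is not given, so its counts may hold reads of Ctsb. Acat2, Pmvk and Fdps, which make acetoacetyl-CoA, mevalonate diphosphate and farnesyl diphosphate, were not called in astrocytes, with log2 fold changes of 0.82, 0.89 and 0.50. Ggps1, which leads to protein prenylation and away from sterols, read 89.0, 75.5 and 76.0 CPM in astrocytes and 86.9, 82.5 and 85.5 CPM in neurons, overlapping values (-0.04).

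Among sterol steps the largest contrast belonged to Msmo1, the methylsterol monooxygenase (chr8:64718139-64733792). It read 1226, 870 and 1012 CPM in astrocytes, 138, 149 and 160 CPM in oligodendrocytes and 99.4, 81.8 and 80.5 CPM in neurons. Each astrocyte value lay above every value of the other classes, and the log2 fold change over neurons was 3.61 (SE 0.20, adjusted p = 4.02e-11 by edgeR). With each cell thinned to 2000 UMIs, at least 1 Msmo1 UMI was found in 87.3%, 78.5% and 81.6% of astrocytes and in 15.9%, 13.8% and 12.96% of neurons. Dhcr7, the last reductase of one branch, read 77.3, 56.3 and 53.8 CPM in astrocytes and 8.60, 10.5 and 11.1 CPM in neurons (2.68). Nsdhl, a sterol dehydrogenase, and Cyp51, the lanosterol demethylase, followed with log2 fold changes of 2.48 and 2.03. Sqle, which oxidises squalene, Lss, which closes the ring, Sc5d, a desaturase, and Hsd17b7, a ketoreductase, were called with log2 fold changes between 1.52 and 1.86. Tm7sf2, a sterol reductase whose counts may include reads of the overlapping gene Vps51, was also called (2.05). Ebp, the sterol isomerase, was the exception: it read 21.6, 24.3 and 22.8 CPM in astrocytes, below the 36.7, 28.3 and 25.97 CPM of neurons in each library, though the log2 fold change of -0.35 was not called.

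Oligodendrocytes came next, with 16 genes higher and 2 lower than in neurons, against 20.0% and 29.0% of all genes. Of the 19 enzymes 8 were called higher and 0 lower, with a median log2 fold change of 0.74 (-0.08 for all genes). Ebp was led by this class at 97.2, 76.4 and 81.7 CPM, above the 74.1, 70.9 and 74.3 CPM of microglia without overlap, and its log2 fold change over neurons was 1.84. Sc5d read 111, 115 and 119.6 CPM in oligodendrocytes and 47.4, 42.7 and 43.6 CPM in neurons (1.72). Idi1, Dhcr7, Mvk, Lss and Cyp51 were called with log2 fold changes between 1.42 and 1.66. Msmo1 was called at 1.14, but read 0.78 without scaling factors and 0.95 without the male library, both short of the threshold. TMM scaling, which sets a common level for most genes, moves the whole class here: without it the median of all genes was -0.43 in oligodendrocytes, -0.30 in microglia and -0.28 in endothelial cells, while no list median changed sign in any class. Without it, the enzymes in oligodendrocytes had a median of 0.39, with 7 higher and 1 lower.

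Microglia showed the reverse pattern within synthesis. Over all 35 genes, 10 were higher and 17 lower than in neurons, against 25.0% and 32.5% of all genes. Of the 19 enzymes 13 were lower and 1 was higher, with a median log2 fold change of -1.42 beside -0.15 for all genes. Microglia had the lowest mean of the 6 classes for 14 of the 19 enzymes, where 3257 of the 18222 genes ranked were lowest there. Sqle read 4.35, 7.74 and 8.80 CPM in microglia and 53.2, 46.8 and 45.4 CPM in neurons (log2 fold change -2.71). Hmgcs1 read 27.1, 36.9 and 41.7 CPM (-2.41), and neither gene's microglial range came near the neuronal one. Hsd17b7 was lower by a log2 fold change of -2.35 and Fdft1 by -2.29. Neuron markers in microglia read 2.86%, 7.56% and 9.19% of their level in neurons, in the order in which both Sqle and Hmgcs1 rise over the libraries, and their part in these low values was not tested. The call of Mvd (-1.11) was lost without the diestrus library (-0.98). The enzyme called higher was Ebp (1.43). Ggps1 was highest among the 6 classes in microglia, at 97.4, 98.7 and 92.5 CPM, without a call (0.33). GABAergic neurons taken alone read more, at 102.5, 100.8 and 104 CPM.

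In the vessel wall, the median enzyme was lower than in neurons, while the share of enzymes called lower was near that of all genes. Endothelial cells had 8 of the 35 genes higher and 8 lower, against 22.6% and 29.8% of all genes, and mural cells had 6 higher and 9 lower, against 18.6% and 26.4%. The 19 enzymes gave 1 higher and 6 lower calls in endothelial cells (median -0.71, all genes -0.10). In mural cells they gave 0 higher and 6 lower calls (median -0.82, all genes -0.21). These lower calls stand beside the 29.8% and 26.4% of all genes. Fdft1 read 16.7, 21.9 and 28.6 CPM in endothelial cells and 19.5, 27.5 and 24.0 CPM in mural cells, below the neurons in every library, with log2 fold changes of -1.78 and -1.85. Hmgcs1 was lower by -1.73 and -1.77. Tm7sf2 was listed at 0, 4.15 and 2.09 CPM in mural cells (-2.03), and its log2 fold change there was -1.33 without the estrus library and -3.44 without the diestrus library. Pmvk and Mvk were not called in either vessel class, and Mvk read a log2 fold change of 0.99 in endothelial cells. With the stricter gate 10 enzymes were lower in mural cells, and without the diestrus library 1 was higher and 4 were lower. In endothelial cells 2 were higher without the estrus or the diestrus library, and 0 without the male library. Calls of Mvd in both classes were lost without the estrus or the diestrus library (log2 fold changes -0.85 and -0.86 in endothelial cells, -0.81 and -0.91 in mural cells, where it read -2.22 without the male library). Those of Hsd17b7 were lost without the diestrus library (-0.97 and -0.76). Ebp, the enzyme called higher in endothelial cells (1.09), was lost without the male library (0.93) and without scaling factors (0.91), which left 0 enzymes higher and 7 lower in that class.

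Srebf1 and Nr1h3 separated the classes. Srebf1, a sterol regulatory element factor known for fatty acid synthesis genes, read 104, 77.5 and 86.8 CPM in astrocytes, 38.6, 39.3 and 54.1 CPM in oligodendrocytes and 2.14, 2.75 and 3.09 CPM in neurons. All classes were above neurons without overlap, with log2 fold changes of 5.12 in astrocytes, 4.39 in oligodendrocytes, 2.41 in endothelial cells, 2.14 in mural cells and 1.92 in microglia. Nr1h3, the liver X receptor alpha, read 67.5, 47.2 and 56.4 CPM in mural cells, against 0.831, 0.869 and 0.672 CPM in neurons. This was the largest contrast of mural cells (log2 fold change 6.10, SE 0.27, adjusted p = 2.77e-12 by edgeR). It was also called in astrocytes (3.10, from 6.23 to 7.48 CPM) and endothelial cells (2.60). Gm13783 shares exon bases with Nr1h3 on the same strand, so the counts cannot be assigned to Nr1h3 with certainty.

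The broader receptor Nr1h2, liver X receptor beta, read 65.7, 46.2 and 59.5 CPM in mural cells, 60.6, 36.7 and 39.7 CPM in endothelial cells and 15.6, 13.5 and 13.3 CPM in neurons. It was called in mural cells (1.94), endothelial cells (1.85), oligodendrocytes (1.60) and microglia (1.02), the last falling to 0.86 without scaling factors. In microglia it also missed the threshold without the estrus library (0.89), without the male library (0.93) and with no filter on low counts (1.00 after rounding), where 9 members were higher instead of 10. Insig1, which holds the sterol sensor in the endoplasmic reticulum and is itself a target of the pathway, read 166, 142 and 174 CPM in astrocytes and 25.2, 30.8 and 30.9 CPM in neurons (2.52). It was higher in oligodendrocytes (1.76) and lower in microglia (-1.43). Srebf2, the factor best known for the synthesis enzymes, was called in 1 of the 5 classes, microglia, at 16.9, 28.4 and 25.7 CPM against 77.8, 89.9 and 84.9 CPM in neurons (-1.71). Scap, the escort of both factors, and Insig2, the second retention protein, were called in no class. Insig2 read 107, 91.3 and 62.6 CPM in mural cells, and in that class the male library was lowest.

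**Figure D2:**
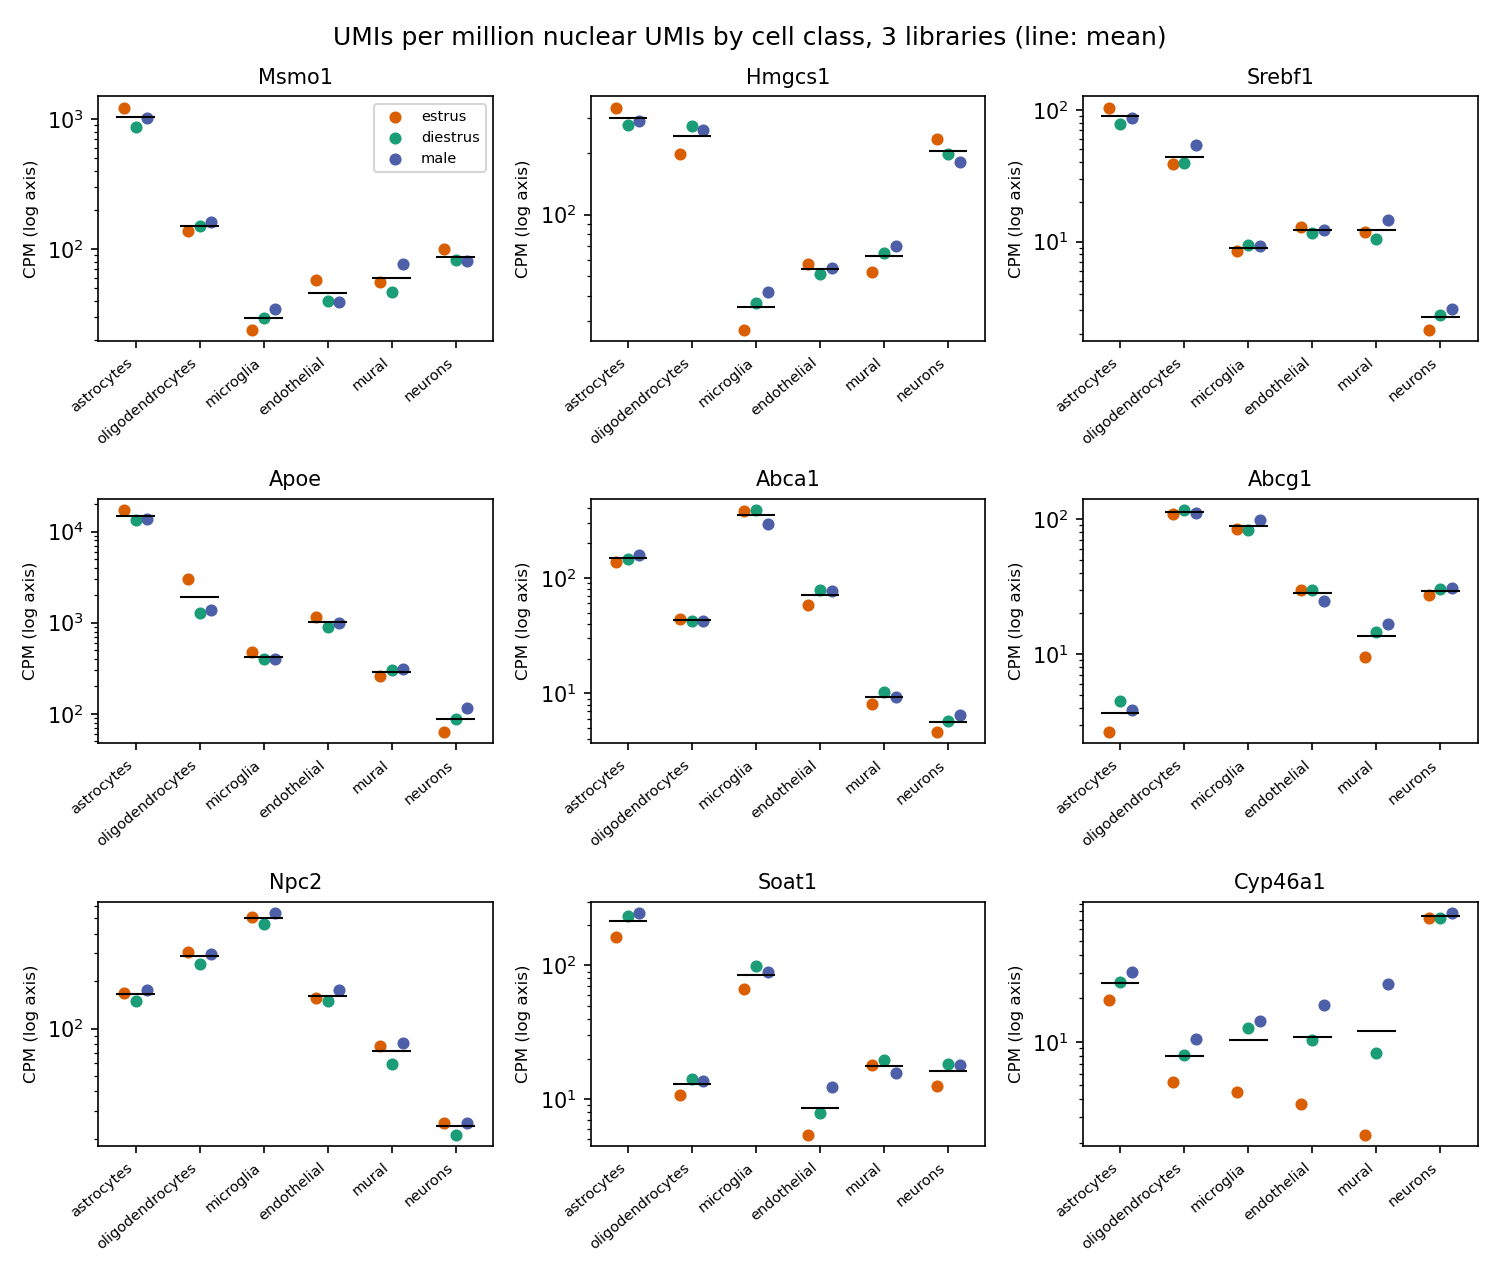
CPM (vertical, log axes) of 9 genes in the 6 cell classes (horizontal), with 1 point per library and a line at the mean of the 3 libraries. Msmo1, Srebf1, Apoe and Soat1 are highest in astrocytes, Abca1 and Npc2 in microglia, Abcg1 in oligodendrocytes and Cyp46a1 in neurons.

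Export genes were shared out among the classes. Apoe (chr7:19696109-19699188), the main apolipoprotein of the brain, read 17249, 13341 and 13915 CPM in astrocytes, 3055, 1293 and 1387 CPM in oligodendrocytes and 1150.5, 904 and 990.1 CPM in endothelial cells. It read 471, 397 and 402 CPM in microglia, 261, 299 and 308 CPM in mural cells and 62.5, 86.5 and 115 CPM in neurons. No neighbouring classes overlapped in that order. The log2 fold change of astrocytes over neurons was 7.39 (SE 0.35, adjusted p = 7.53e-12 by edgeR). That of oligodendrocytes was 4.70, and 4.02 without the estrus library. In neurons Apoe stood at 0.362%, 0.648% and 0.827% of its astrocyte level. The summed astrocyte markers stood there at 0.632%, 0.936% and 1.29% of theirs. In microglia the shares of Apoe and of the markers lay close together, at 2.73%, 2.98% and 2.89% for Apoe and 3.38%, 2.80% and 2.62% for the markers, beside a called log2 fold change of 2.37 over neurons. In oligodendrocytes Apoe stood at 17.7%, 9.69% and 9.97% of the astrocyte level, above the 1.11%, 1.38% and 1.37% of the markers. In endothelial cells it stood at 6.67%, 6.78% and 7.12% against 0.860%, 1.17% and 1.26%. The part of stray astrocyte RNA in the Apoe counts of these classes was not tested.

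Abca1 (chr4:53030787-53159895), the transporter that loads cholesterol onto apolipoproteins, was highest among the 6 classes in microglia, at 375, 384 and 294 CPM. The smaller class of border macrophages read higher, at 577, 393 and 553 CPM. Astrocytes read 137, 144 and 159 CPM, endothelial cells 57.8, 78.4 and 77.1 CPM, oligodendrocytes 44.0, 42.3 and 42.3 CPM and neurons 4.62, 5.75 and 6.52 CPM. The 6 classes were apart at each step of the order, and log2 fold changes over neurons were 6.13 in microglia (SE 0.18), 4.75 in astrocytes, 3.82 in endothelial cells and 3.28 in oligodendrocytes. Abcg1, which passes cholesterol on to formed particles, showed another order. It read 109, 116 and 110.01 CPM in oligodendrocytes, 84.3, 82.8 and 98.8 CPM in microglia and 27.2, 30.4 and 30.8 CPM in neurons. Astrocytes were lowest, at 2.63, 4.45 and 3.83 CPM, without overlap with any class. The log2 fold changes were 2.27 in oligodendrocytes, 1.74 in microglia and -3.01 in astrocytes (SE 0.20, adjusted p = 7.06e-10 by edgeR), so that the 2 transporters went in opposite directions in astrocytes.

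Npc2 (chr12:84754562-84773152) and Npc1 hand cholesterol out of the lysosome. Npc2 read 508, 463 and 545 CPM in microglia, the highest of the 6 classes, 308, 257 and 295 CPM in oligodendrocytes and 25.3, 21.1 and 25.3 CPM in neurons. It was higher than in neurons in each of the 5 classes, with log2 fold changes of 4.55, 3.94, 2.92 in endothelial cells, 2.83 in astrocytes and 1.55 in mural cells. Npc1 read 223, 231 and 263 CPM in oligodendrocytes, 107, 109.8 and 131 CPM in astrocytes, 99.5, 112 and 124 CPM in microglia and 17.0, 20.96 and 26.9 CPM in neurons. Its log2 fold changes were 3.83, 2.48 and 2.54, and it was not called in the vessel classes.

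Lrp1 (chr10:127538161-127621148), a receptor that takes up apolipoprotein E, read 256, 250.01 and 279 CPM in microglia, 179.9, 163 and 200.4 CPM in mural cells, 144, 157 and 155 CPM in astrocytes and 73.3, 78.9 and 86.1 CPM in neurons. In oligodendrocytes it read 3.83, 6.24 and 8.44 CPM and in endothelial cells 5.83, 7.93 and 16.3 CPM, both far below neurons without overlap. The log2 fold changes were 1.88 in microglia, 1.15 in mural cells, -3.34 in oligodendrocytes and -2.96 in endothelial cells. The astrocyte value of 0.99 was just short of the threshold, and it passed with DESeq2 (1.03), the stricter gate (1.09), glutamatergic neurons only (1.03) and without the diestrus library (1.08). Stard4, a carrier of cholesterol between membranes, was led by endothelial cells at 56.6, 75.8 and 51.1 CPM, against 16.4, 16.5 and 16.1 CPM in neurons and 1.66, 3.44 and 3.61 CPM in microglia (log2 fold changes 2.08 and -2.43). In mural cells it was lower as well (-1.23).

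Soat1 and Cyp46a1 deal with surplus sterol. Soat1, which esterifies cholesterol for storage, read 163, 236 and 249 CPM in astrocytes, 66.7, 98.7 and 90.03 CPM in microglia and 12.5, 18.3 and 17.9 CPM in neurons. The classes did not overlap, and log2 fold changes were 3.77 and 2.54. Cyp46a1 (chr12:108334381-108362234), the hydroxylase that makes brain cholesterol soluble, was highest in neurons at 72.0, 72.0 and 78.4 CPM. Astrocytes read 19.5, 26.1 and 30.5 CPM, microglia 4.47, 12.5 and 13.995 CPM and mural cells 2.27, 8.30 and 25.1 CPM. All 5 classes were called lower, from a log2 fold change of -1.57 in astrocytes to -3.08 in mural cells, where it was -2.44 without the estrus library and -3.99 without the male library. Astrocyte Cyp46a1 stood at 27.1%, 36.2% and 38.9% of the neuronal level, above the 2.52%, 5.75% and 7.30% of the neuron markers there. In microglia, endothelial and mural cells the share rose from estrus to male in the same order as the neuron markers (6.20%, 17.4% and 17.8% in microglia), and the part of stray neuronal RNA in it was not tested.

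Synthesis and transport thus parted by class. The 7 genes of export, uptake and transfer had medians of 2.48 in astrocytes, 3.28 in oligodendrocytes, 2.37 in microglia, 2.08 in endothelial cells and 0.69 in mural cells, all above 0. The synthesis medians were positive in astrocytes and oligodendrocytes and negative in the other 3 classes. In microglia 6 of the 7 transport genes were called higher and 13 of the 19 enzymes lower, against 25.0% and 32.5% of all genes. Transport genes called higher and lower were 4 and 1 in astrocytes, 5 and 1 in oligodendrocytes, 4 and 1 in endothelial cells. In mural cells they were 3 and 2. Of all genes, 18.6% to 22.6% were called higher and 24.3% to 29.8% lower in those 4 classes. These signs of the list medians held under all 11 settings fitted. Synthesis medians ranged from 1.51 to 2.01 in astrocytes and from -1.57 to -1.24 in microglia. They ranged from -0.90 to -0.44 in endothelial cells and from -1.10 to -0.49 in mural cells. All-gene medians of the main fit lay between -0.21 and -0.07. With no filter on low counts, the mural synthesis median was -0.86, close to the -0.73 of all genes. In both vessel classes the share of enzymes called lower was near that of all genes.

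**Figure D3:**
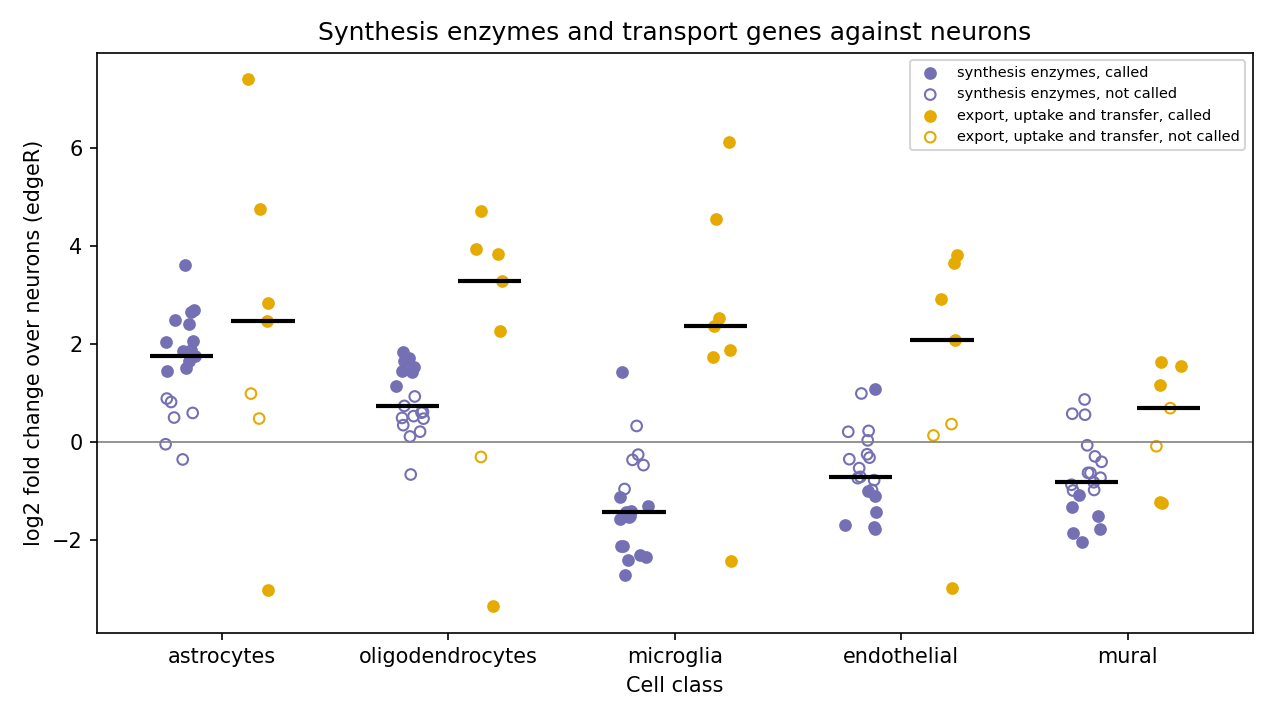
Log2 fold change over neurons from edgeR (vertical) for the 19 synthesis enzymes and the 7 export, uptake and transfer genes in 5 cell classes (horizontal), filled where called and open where not, with a bar at each median. In microglia the enzymes have a median of -1.42 and the transport genes of 2.37, while in astrocytes both medians are positive at 1.76 and 2.48.

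Related genes outside the 35 were counted in lists drawn from textbook pathways. Of 10 fatty acid synthesis and desaturation genes, 9 were higher in astrocytes than in neurons and 0 lower, against 22.0% and 24.3% of all genes. The median was 2.54, and the elongase Elovl5 and the desaturase Fads2 led, both at 3.73. In oligodendrocytes 7 were higher and 1 lower, against 20.0% and 29.0% of all genes (median 1.66), led by the desaturases Scd1 (4.55) and Scd2 (4.35). In microglia 1 was higher and 6 were lower, against 25.0% and 32.5% (median -1.51), led by Elovl6 (-3.17) and Fads2 (-2.78). Endothelial cells had 1 higher and 5 lower, against 22.6% and 29.8%. Mural cells had 1 higher and 4 lower, against 18.6% and 26.4%.

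A list of lipoprotein receptors and a chaperone held 8 genes, of which 7 were tested. Of these 7, 1 was higher and 0 lower in astrocytes (Lrp4, 5.01), 2 and 1 in oligodendrocytes and 2 and 2 in microglia. Endothelial cells had 3 higher and 2 lower, and mural cells 0 and 3. Lrp8, the apolipoprotein E receptor that binds reelin, was lower in oligodendrocytes (-4.48), microglia (-4.09) and mural cells (-3.98). Vldlr was lower in endothelial cells (-3.46), where Scarb1 was higher (2.55), and Vldlr was lower in mural cells as well. In microglia Vldlr was the largest call after Lrp8. Of 10 genes of lysosomal and membrane transfer, 3 were higher and 0 lower in astrocytes, 5 and 1 in oligodendrocytes, 5 and 2 in microglia, 1 and 1 in endothelial cells, and 0 and 2 in mural cells. Oligodendrocytes and microglia were both led by Scarb2 (2.69 and 2.62) and Lipa, the acid lipase (2.63 and 2.60). Gramd1b, a sterol carrier at membrane contacts, was lower in endothelial (-3.66) and mural cells (-4.09). Of 13 genes of oxysterol handling and liver X receptor action, 4 were higher and 2 lower in astrocytes, 5 and 5 in oligodendrocytes, 5 and 4 in microglia, 6 and 4 in endothelial cells, and 8 and 4 in mural cells. Over all genes, 18.6% to 25.0% were called higher and 24.3% to 32.5% lower, depending on the class. Cyp27a1, a sterol hydroxylase, was called in astrocytes (4.63), oligodendrocytes (6.07) and microglia (5.92). Apod was called in oligodendrocytes (7.03), Mylip in microglia (4.71), and Ch25h (5.32) and Cyp39a1 (4.75) in endothelial cells. Cyp39a1 was not particular to endothelial cells: in mural cells it was the call largest in size, followed by Rxrg.

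Differences between estrus, diestrus and males rest on 1 library each, so they compare libraries and carry no test. Log2 ratios of CPM + 1 are given for genes with at least 100 UMIs over both libraries. Their 95% intervals (exact Clopper-Pearson) are those of the ratio without the added 1 and cover counting error only. The 3 pairs share libraries and are not independent.

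In astrocytes, synthesis enzymes read higher in the estrus library than in either other library. Over diestrus 18 of the 19 enzymes were higher, where 48.4% of all genes were, with a median log2 ratio of 0.52 (all genes -0.01). Of these, 12 reached a log2 ratio of 0.5, where 6.68% of all genes did. Over males 18 of 19 were higher (42.5% of all genes), with a median of 0.41, and 6 reached 0.5 (5.65%). Between diestrus and males 3 of 19 were higher in diestrus (41.8%), with a median of -0.15. Ebp was the enzyme that was not higher in estrus in both pairs, with log2 ratios of -0.16 (interval -0.53 to 0.20) and -0.08 (-0.42 to 0.26).

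Pmvk, the kinase that gives mevalonate diphosphate, read 137, 75.5 and 88.5 CPM in astrocytes, the highest estrus over diestrus ratio among the 35 genes at 0.85 (0.68 to 1.04) and 0.62 (0.47 to 0.78) over males. Cyp51 read 324, 192 and 242 CPM, with ratios of 0.75 (0.64 to 0.87) and 0.42 (0.33 to 0.52). Mvk read 53.0, 33.0 and 33.8 CPM, with ratios of 0.67 and 0.63 (0.40 to 0.90). For all 3 the estrus library was highest, and the diestrus and male libraries lay closer together. Msmo1 had ratios of 0.49 (0.44 to 0.55) and 0.28 (0.23 to 0.32), and Hmgcs1 of 0.29 (0.19 to 0.39) and 0.21 (0.12 to 0.30). Between diestrus and males Tm7sf2 was highest (0.17, -0.17 to 0.52) with Ebp (0.08), and Acat2 (-0.37, -0.69 to -0.07) and Cyp51 (-0.33, -0.46 to -0.21) were lowest.

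Genes of other roles in astrocytes went both ways. Of 6 transport genes 3 were higher in estrus than in diestrus (median 0.06) and 1 was higher than in males (-0.09). Apoe was among them, at 0.37 (0.36 to 0.38) over diestrus and 0.31 (0.30 to 0.32) over males. Soat1 went the other way, with log2 ratios of -0.53 (-0.65 to -0.41) and -0.60 (-0.72 to -0.50), and so did Cyp46a1 with -0.40 and -0.62. Srebf1 was higher in estrus (0.42, 0.24 to 0.61, and 0.26, 0.10 to 0.42), while Srebf2 was not (-0.13, -0.28 to 0.02, and -0.06, -0.20 to 0.08).

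Astrocyte markers moved in the same direction as the enzymes. Of the 10 markers 9 were higher in estrus than in diestrus (median 0.35) and 8 were higher than in males (0.25), although their summed level of 12675.7 CPM stood close to 11432.2 CPM in diestrus and 11900.0 CPM in males. An alternative chosen after the data were seen limited the class to cells with at most 5 neuron marker UMIs per 10000. It left 1126 of 1334 astrocytes in estrus, 351 of 851 in diestrus and 437 of 1418 in males, unlike parts of the class. In these, 19 of 19 enzymes were higher in estrus than in diestrus (median 0.58, all genes 0.00). Over males 18 of 19 were higher (0.41, all genes -0.05). The share of all genes higher was not counted in these cells, and their astrocyte markers were not read again.

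**Figure D4:**
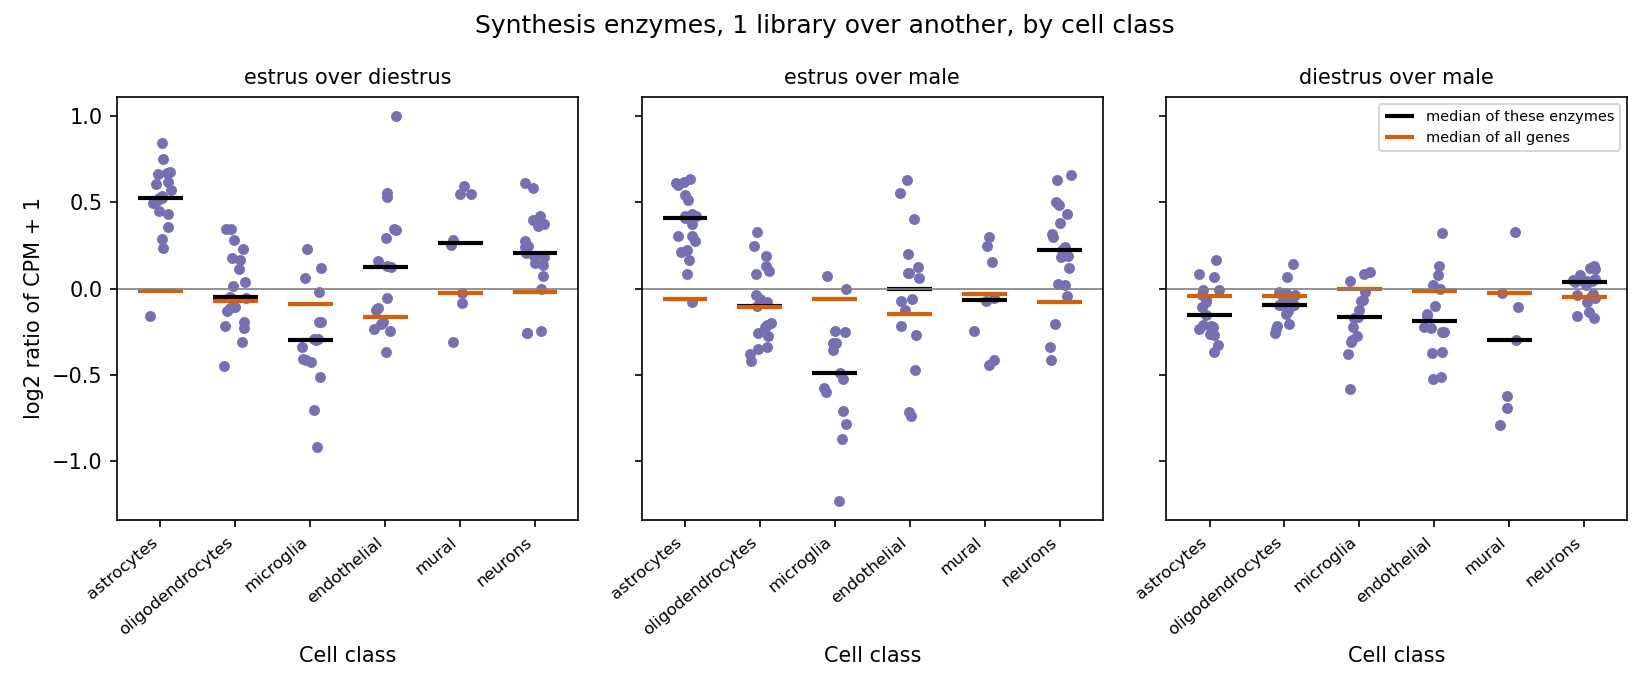
Log2 ratio of CPM + 1 (vertical) of each synthesis enzyme with at least 100 UMIs between 2 libraries, by cell class (horizontal), in 3 panels, one for each pair of libraries. Black bars are medians of the enzymes and orange bars medians of all genes: in astrocytes the enzyme medians are 0.52, 0.41 and -0.15, in microglia -0.30, -0.49 and -0.17.

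Neurons leaned the same way, with smaller medians. Of the 19 enzymes 15 were higher in estrus than in diestrus (47.2% of all genes), with a median of 0.21, and 15 were higher than in males (42.3%), with a median of 0.23. Between diestrus and males 11 were higher (38.6%, median 0.04). Pmvk read 73.2, 47.6 and 45.9 CPM in neurons, with ratios of 0.61 (0.55 to 0.69) and 0.66 (0.59 to 0.75). Fdps read 141, 94.2 and 91.0 CPM, with ratios of 0.58 (0.54 to 0.63) and 0.63 (0.58 to 0.69). In both the estrus library stood above the others. Counts of Fdps may hold reads of Gm43738, which overlaps it on the same strand. Soat1 (-0.52) and Apoe (-0.46) were lowest over diestrus, and Apoe (-0.87) and Npc1 (-0.64) were lowest over males. Between diestrus and males Hmgcs1 (0.13) and Ebp (0.12) were highest, and Apoe (-0.41) and Npc1 (-0.35) lowest. The astrocyte markers found in neurons rose from estrus to male like Apoe there. Median depth of the neurons fell over the libraries in that same order, and its part was not tested.

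In microglia the enzymes read lower in estrus. Over diestrus 3 of 16 enzymes were higher (36.8% of all genes), with a median of -0.30, and over males 1 of 15 (43.2%), with a median of -0.49. Fdft1 read 8.82, 17.6 and 22.1 CPM, with ratios of -0.92 (-1.31 to -0.68) and -1.23 (-1.66 to -0.99). Cyp46a1 was lower still, at -1.31 and -1.46, beside summed neuron markers of 261, 773 and 933 CPM in microglia. In microglia with few neuron markers, 3 of 14 and 2 of 13 enzymes were higher in estrus, with medians of -0.22 and -0.47 (all genes -0.07 and -0.03). That limit kept 2617 of 3220 microglia in estrus, 615 of 2308 in diestrus and 439 of 2117 in males. The highest ratios belonged to Nr1h2 (0.55, 0.34 to 0.80) and Apoe (0.24) over diestrus, and to Abca1 (0.35, 0.28 to 0.42) and Nr1h2 (0.29) over males. Between diestrus and males 3 of 15 were higher (49.3%, median -0.17). Abca1 (0.39) and Srebf2 (0.14) were highest in that pair, and Mvk (-0.59) and Pmvk (-0.38) lowest.

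In oligodendrocytes the enzyme medians of both pairs with estrus stayed close to those of all genes (-0.07 over diestrus and -0.11 over males). Of 19 enzymes 9 were higher in estrus than in diestrus (40.1% of all genes, median -0.05) and 6 were higher than in males (35.0%, -0.10). Between diestrus and males 2 of 19 were higher in diestrus, a smaller share than the 40.5% of all genes (median -0.10). Apoe stood apart from the other members, with log2 ratios of 1.24 (1.22 to 1.26) and 1.14 (1.12 to 1.16), from the 3055, 1293 and 1387 CPM given above. Astrocyte markers in the same cells read 141, 158 and 163 CPM, lowest in estrus. After thinning to 2000 UMIs, 90.7%, 76.7% and 79.5% of oligodendrocytes held an Apoe UMI, against 9.41%, 12.7% and 18.1% of neurons, with median depths before thinning of 8035, 8207 and 6036 UMIs in oligodendrocytes. Nr1h2 (0.45) was second over diestrus and Pmvk (0.33) over males. Lrp1 (-0.58 and -0.97) and Cyp46a1 (-0.54 and -0.87) were lowest, and between diestrus and males Nsdhl (0.14) and Abcg1 (0.08) were highest and Srebf1 (-0.45) and Lrp1 (-0.38) lowest.

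Endothelial cells had 9 of 17 enzymes higher in estrus than in diestrus (32.5% of all genes, median 0.12), 8 of 16 higher than in males (37.6%), and 4 of 16 higher in diestrus than in males (48.5%, -0.19). Cyp51 read 47.6, 23.2 and 30.4 CPM, with ratios of 1.00 (0.82 to 1.26) and 0.63 (0.38 to 0.92), and Nr1h2 followed with 0.71 and 0.60. Cyp46a1 (-1.27 and -2.02), Npc1 (-0.56 over diestrus) and Lrp1 (-1.34 over males) were lowest. Between diestrus and males Stard4 (0.56, 0.35 to 0.79) and Srebf2 (0.34) were highest, and Lrp1 (-0.95) and Cyp46a1 (-0.75) lowest.

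Mural cells had few counts. Of 8 enzymes 5 were higher in estrus than in diestrus (46.9% of all genes, median 0.27) and 3 were higher than in males (46.4%, -0.06), and 1 of 7 was higher in diestrus than in males (47.0%, -0.30). Pmvk (0.59, 0.28 to 0.92) and Ebp (0.55) were highest over diestrus, and Hmgcs1 (-0.31) and Apoe (-0.20) lowest. Insig2 was highest over males in both females, at 0.77 (0.36 to 1.21) for estrus and 0.54 (0.11 to 0.99) for diestrus. After it came Pmvk (0.30) for estrus and Ggps1 (0.33) for diestrus. Lowest over males were Srebf2 (-0.71) and Msmo1 (-0.44) for estrus, and Cyp51 (-0.79) and Msmo1 (-0.69) for diestrus.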

How the data were processed

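Single-cell libraries of the medial prefrontal cortex were made with the 10x Genomics 3′ kit after papain digestion and a Percoll step, per the labels' protocols. The deposited matrices hold raw counts of UMIs per gene and barcode, not normalized. The file headers name Cell Ranger 7.0.0, while the submitters' processing notes name Cell Ranger 3.0.2 and mm10. Annotation, use of intronic reads, use of strand and cell calling by the authors are not given here. Gene coordinates and overlaps were taken from GENCODE M21, which matched 35 of the 35 genes and 32235 of 32285 in all, and promoters from RefSeq.

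Barcodes with under 500 genes, over 15% mitochondrial UMIs or a Scrublet score above 0.3 (scanpy 1.11.5) were removed, which left 12718, 14689 and 16135 cells. A cell entered a class with at least 50% of the class's markers detected and 0.33 of their typical level per 10000 UMIs, and was left out when 3 markers of another class were found at 0.2 of that class's typical level. These limits were set after the data were seen. Between 10.2% and 28.3% of retained cells had no class. Cells over a limit but left out for another class numbered from 413 (mural) to 1607 (endothelial), and ungated cells within 25% below a limit from 57 to 349. The median neuron marker level in the 5 other main classes was 3.936 to 6.285 UMIs per 10000, against 95.092 in neurons, and it was up to 7.052 in the smaller classes (oligodendrocyte precursors).

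UMIs were summed per library and class, giving 18 sums, and each class was tested against neurons with edgeR 4.0.16 (R 4.3.3) by the quasi-likelihood test with TMM factors and the library as a block, since the classes of a library come from the same mice. Alternatives were DESeq2 1.42.0, no TMM factors, no filter on low counts, a stricter gate, cells above the Scrublet limit kept, glutamatergic neurons only, no block and each library left out. The fits were tested on simulated data. P-values measure the spread that remains after the library term, pooled over the classes of 3 libraries of unlike mice. The test gives no standard error, so each SE printed is the size of the log2 fold change divided by the square root of the test's F. Libraries were compared by ratios without a test.

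Named genes were, per class, at least the 3 called members with the highest and the 3 with the lowest fold change, per library pair the 2 highest and 2 lowest ratios, and per outside list the 2 largest calls; other members are described by role. The members and lists were chosen with earlier results of these data known. The outside lists hold 41 genes.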

Additional observations from a re-analysis of the deposited data

How the results depend on the processing

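Of 99 calls against neurons among 175 comparisons of a gene and a class, 91 were kept under all 10 alternatives and 8 were not: Ebp, Hsd17b7 and Mvd in endothelial cells, Hsd17b7 and Mvd in mural cells, Msmo1 in oligodendrocytes, and Mvd and Nr1h2 in microglia. None of the 175 changed direction while called. Without TMM factors 4 genes were lower in oligodendrocytes (2 with them), and with a stricter gate 14 were lower in mural cells (9). Leaving out 1 library in turn gave, for genes higher and lower, 21 to 24 and 2 in astrocytes, 15 to 17 and 2 to 3 in oligodendrocytes, 9 to 10 and 16 to 18 in microglia, 7 to 9 and 6 to 10 in endothelial cells, and 6 to 7 and 7 to 11 in mural cells. With no replicate block, calls were 21 and 2, 16 and 2, 10 and 17, 8 and 7, and 6 and 9, so that 1 call, Mvd in endothelial cells, was lost. No paired analysis was possible between libraries because each condition has 1 library.

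Counts of synthesis enzymes higher in the first library of a pair are given with the number of enzymes that could be counted, and the reported count in parentheses. Several settings change that number. Estrus over diestrus gave 5 of 16 in oligodendrocytes with thinned cells (9 of 19). In mural cells it gave 11 of 19 without a minimum of UMIs, 1 of 2 with the stricter gate, 3 of 5 with thinned cells and 3 of 6 in cells with few neuron markers (5 of 8). Estrus over males gave 10 of 19 with TMM factors in oligodendrocytes (6 of 19). In microglia it gave 2 of 15 with TMM factors or a correction for gene length, 2 of 10 with thinned cells and 2 of 13 in cells with few neuron markers (1 of 15). In endothelial cells thinning gave 5 of 11 (8 of 16), and in mural cells TMM gave 5 of 8 and no minimum 7 of 19 (3 of 8). Diestrus over males gave 6 of 19 with TMM, 5 of 19 with the stricter gate and 8 of 19 with the length correction in astrocytes (3 of 19). In oligodendrocytes it gave 6 of 19 with TMM, 6 of 17 with thinning, 10 of 19 with the length correction and 1 of 19 in cells with few neuron markers (2 of 19). It gave 5 of 15 with the length correction in microglia (3 of 15) and 1 of 11 with thinning in endothelial cells (4 of 16). In mural cells it gave 2 of 7 with TMM or the length correction and 4 of 19 without a minimum (1 of 7). The causes were not tested. In astrocytes and neurons, the counts of estrus over either library stayed within 1.5 times the reported count under each alternative. That limit is wide: in neurons a count near the share of all genes could still meet it, so it cannot show stability. Over diestrus and males, astrocytes with few neuron markers gave 19 of 19 and 18 of 19. Glutamatergic neurons alone gave 16 of 19 and 14 of 19. The setting with few neuron markers was chosen after the data were seen. The stricter gate left no mural enzyme to count for both pairs with males, and few neuron markers left none for diestrus over males.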

Other observations

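Apoe was also read in smaller classes. In macrophages at the brain's borders (68, 78 and 58 cells in estrus, diestrus and males) it read 41494.5, 41699 and 45516 CPM, and in oligodendrocyte precursors (148, 218 and 201 cells) 5547, 1827 and 3126 CPM. Npc2 read 616, 898 and 893 CPM in the border macrophages, above microglia in each library. Lrp1 read 376, 338 and 455 CPM in the precursors and 609, 395 and 364 CPM in fibroblast-like cells (30, 70 and 37 cells), also above microglia in each library. In GABAergic neurons (184, 322 and 338 cells) Apoe read 137, 58.0 and 78.8 CPM, highest in estrus, while in glutamatergic neurons (1516, 1864 and 1754 cells) it read 55.6, 73.8 and 104 CPM, lowest in estrus. Cyp46a1 was higher in glutamatergic neurons, at 73.2, 74.4 and 81.8 CPM, than in GABAergic neurons, at 55.5, 49.9 and 58.5 CPM, with no overlap. These comparisons carry no test.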
